A study of Mus musculus with 3 samples.

Results

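The integrins and the proteins that tie them to the cytoskeleton at focal adhesions were followed in endothelial cells sorted from adult mouse glomeruli. The members are all genes of the array annotation whose symbol is that of an integrin alpha or beta subunit, an integrin-like or integrin-binding protein (Itgbl1, Itgb1bp1), a talin, a kindlin (Fermt), a member of the ILK, PINCH (Lims) and parvin complex, a tensin, or one of the adaptors and kinases Pxn, Tgfb1i1, Zyx, Bcar1 and Src. They were chosen by symbol alone, among the probe sets that name 1 gene. This gave 48 genes with 54 probe sets, of 19938 genes with 21789 probe sets in all. Of the symbols searched, 2 (Ptk2 and Hic5) matched no such probe set, so focal adhesion kinase, the product of Ptk2, was not analysed here. Hic5 is an older name of Tgfb1i1, which was measured.

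An integrin is a heterodimer of an alpha and a beta subunit, and the alpha subunit largely sets which matrix protein or counter-receptor it binds. Talin and the kindlins bind the cytoplasmic tail of the beta subunit and switch the receptor to its active state, while ILK, PINCH and parvin form a complex that links the tail to actin. In the glomerulus, endothelial cells and podocytes face each other across a shared basement membrane rich in laminin and type IV collagen, and both hold to it through integrins.

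The cells came from adult mice carrying the transgene Tg(TIE2GFP)287Sato, in which green fluorescent protein (GFP) is made under the promoter of Tek (Tie2), an endothelial receptor gene, on a mixed background that is mostly CD-1, with sex not known. Glomeruli were freed from the renal cortex with collagenase A, caught on sieves and digested with trypsin, and the GFP-positive cells were sorted by FACS. There were 3 arrays, replicates 1, 3 and 5, each from 1 kidney and not pooled, and they form 1 group without treatment. The Tie2 promoter is active in endothelium at large and in some blood cells, so the sort alone does not fix the cell type, and the design holds no other tissue or condition to compare with.

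Each gene was therefore set against fixed levels. The level of 100 on the linear scale (6.64 on the log2 scale) is the number the study used to filter low values. The study applied it to raw values, so a gene below 100 here may have passed that filter. The olfactory receptor level, 28.9 linear and 4.85 log2, is the 95th percentile of the means of 1035 probe sets for olfactory receptor genes, which have no known role in these cells. A gene was called above or below a level at an adjusted p under 0.05 in limma, two-sided, with adjustment over all 21789 probe sets. The spread of each gene was moderated with a prior from the probe sets whose 3 values all differ, and the usual limma prior, taken from all probe sets, is named where it changes a call. Where a gene had several probe sets, the one with the highest mean was used. Levels are deposited log2 signals, given by array in the order replicate 1, 3 and 5 and as mean ± SD (n = 3).

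Over all probe sets, pairs of arrays correlated with r between 0.938 and 0.95, and the array medians lay between 4.79 and 4.85. The highest of these medians, that of replicate 1, equals the olfactory receptor level, so that level lies near the middle of each array. The level is itself a shared value, held by 174 probe sets on replicate 1. Endothelial markers were above 100 for 10 of 10 genes (mean level by array 10.07, 9.62 and 10.29). None of the 7 podocyte genes measured was called above 100. Of these, 6 were below and Foxc2, at 6.76, 6.44 and 6.32, was neither, while 4 were above the olfactory receptor level. Nphs1, the slit diaphragm gene that defines podocytes, was at 5.47 on each array. None of 11 mesangial and smooth muscle, 11 leukocyte, 5 platelet, 8 proximal tubule and 7 distal nephron genes was above 100 either. Identical values on all 3 arrays (within 1e-09) were held by 54.1% of the probe sets that name 1 gene, and by 30 of the 54 member probe sets. Such a value has an SD of 0, which is no measure of replicate error. Values were also shared between probe sets: 41.7% of all probe sets, and 16 of the 54 of the members, had a replicate 1 value held by at least 10 probe sets. Neither is usual in RMA output, and how these values arose is not known here, which bears on every level given as the same on each array. Where values differ, the p-values here measure the spread between these arrays only, moderated by the prior. Probe sets identical on all arrays have no such spread. Their p-values rest on the distance to the level and on a spread from other probe sets, lessened by the SD of 0. A further 13 of the 54 member probe sets held only 2 distinct values, that is, the same value on 2 arrays. Their SD rests in part on that tie and is no full measure of replicate error either. In such RNA from many cells, fewer cells of a type and less RNA per cell cannot be told apart.

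Of the 48 genes, 12 were above 100, 27 were below it and 9 were called neither (14 above and 29 below with the usual prior). Among all genes, 14.9% were above 100 and 73.8% below. Against the olfactory receptor level, 26 members were above and 12 below, where 43.9% of all genes were above and 36.4% below. The members' median level was 5.60, beside 5.02 over all genes. Of 26 subunit genes, 4 were above 100, namely 1 of 8 beta and 3 of 18 alpha subunits. Of the 22 members that are no subunit, 8 were above 100, and their median level was 6.75, beside 5.01 for the alpha and 5.26 for the beta subunits.

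**Figure D1:**
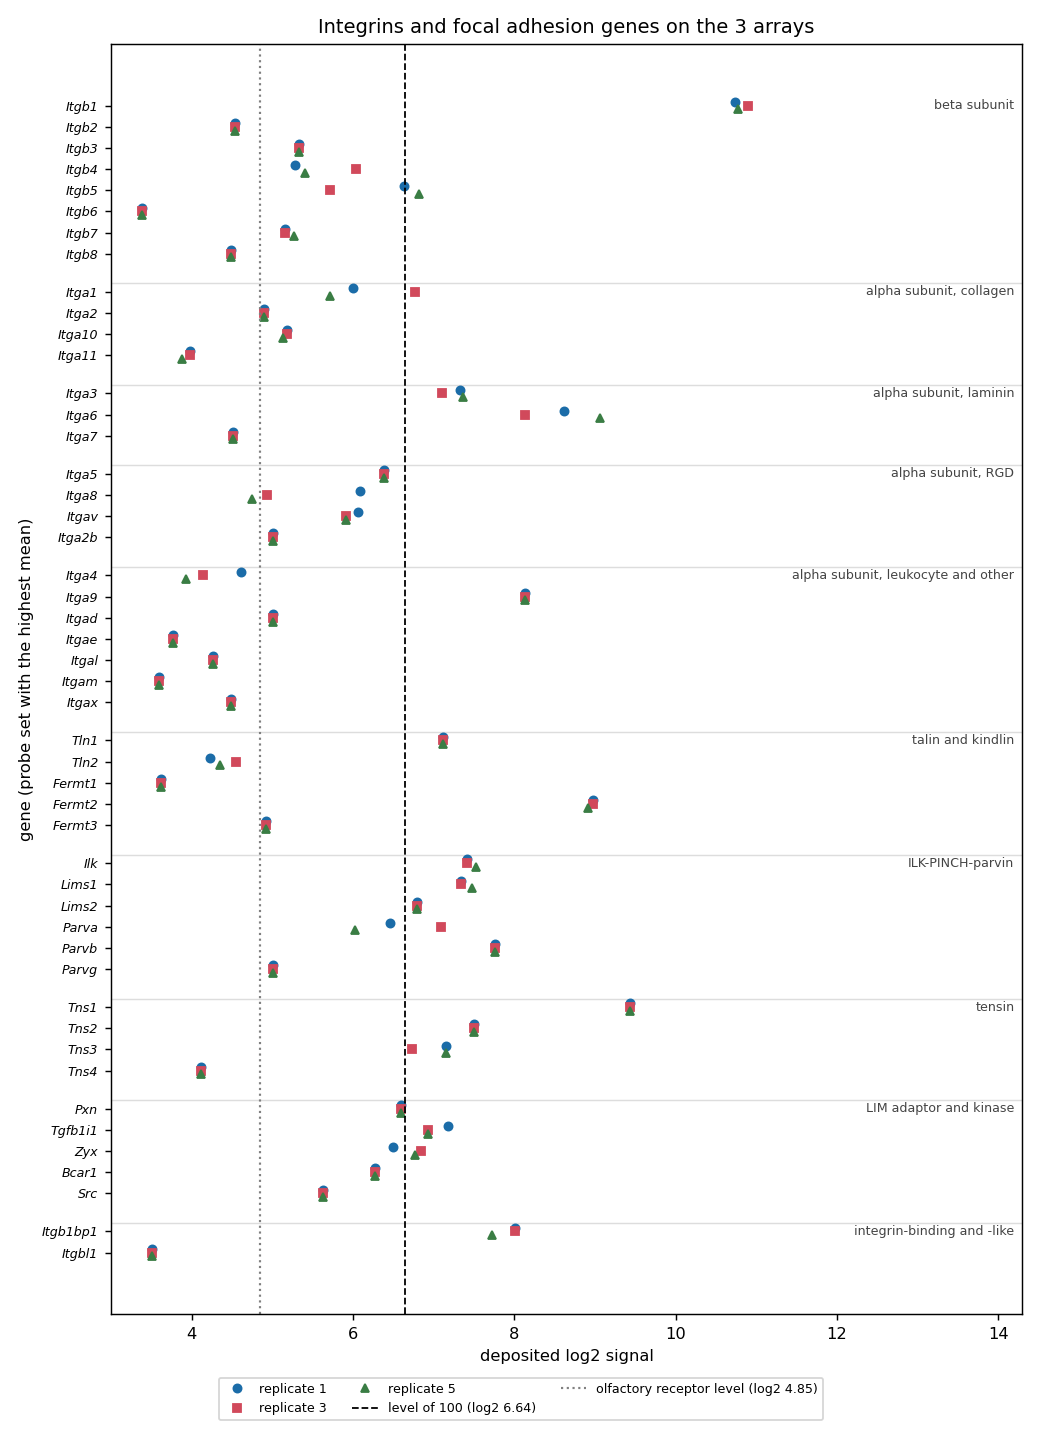
Deposited log2 signal (x axis) of the 48 integrin and focal adhesion genes, 1 row a gene, grouped by role, with 1 symbol per array (replicates 1, 3 and 5, set slightly apart in height so that equal values can be seen). The dashed line is the level of 100 (6.64) and the dotted line the olfactory receptor level (4.85); 12 genes were called above the former, with Itgb1 at 10.81 and Tns1 at 9.44.

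Promoter sequence was also read, since the choice of members did not use it. CCGGAAG, a form of the motif bound by ETS transcription factors, was searched on both strands (CTTCCGG on the other) in the RefSeq promoters of GRCm38.p6, which run from 250 bases before to 50 bases after each start. A promoter was found for 34 of the 48 genes. The letters occurred in 3 of these 34 genes (8.82%) and in 9.93% of all 27025 genes with a promoter, so they are no feature of the members as a group. By promoter, they were in 9.76% of the members' 41 and in 8.86% of all 32851, with 1 site of Ilk counted in 2 overlapping promoters. The stretches of all 3 genes, Ilk, Itga3 and Itgb1bp1, are shown as the sequence behind that count. Each is written 5′ to 3′ on the strand of its gene, with the matching letters in capitals. A match is a description of these letters and not of a bound site.
Ilk, chr7:105736472-105736518, plus strand: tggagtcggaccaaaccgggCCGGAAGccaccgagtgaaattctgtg
Itga3, chr11:95076777-95076823, minus strand: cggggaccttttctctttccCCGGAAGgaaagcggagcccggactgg
Itgb1bp1, chr12:21286313-21286403, minus strand: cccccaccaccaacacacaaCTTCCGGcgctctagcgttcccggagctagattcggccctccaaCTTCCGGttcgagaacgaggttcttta
The match began 98 bases before one listed start of Ilk and 233 before the other, and 89 bases before the start in Itga3. Itgb1bp1 held 2 matches, both to the reverse letters, at 99 and 55 bases before its start.

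Among the beta subunits, Itgb1 was far above 100. Itgb1, the common partner of most matrix-binding alpha subunits, was at 10.74, 10.90 and 10.78 (10.81 ± 0.08, adjusted p = 6.88e-05 in limma). Its arrays lay within a fraction of a log2 unit of each other. Itgb5, a partner of the alpha v subunit, was called neither, at 6.63, 5.71 and 6.82 (6.39 ± 0.59, adjusted p = 0.409). Replicate 3 was low, and without it Itgb5 lay 0.0814 above the level of 100 in place of below it.

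The other 6 beta subunits were below 100. Itgb4, the partner of alpha 6 in hemidesmosomes, was at 5.29, 6.04 and 5.41 (5.58 ± 0.41, adjusted p = 0.00768). Itgb3, the subunit of the vitronectin receptor and of platelet fibrinogen receptors, was at 5.33 on each array. Both were above the olfactory receptor level. Itgb2, the leukocyte subunit, was at 4.54 on each array, and Itgb7, of lymphocyte homing, at 5.15, 5.15 and 5.28, and neither was called against that level. Itgb6, an epithelial subunit, at 3.38 and Itgb8, which activates latent TGF-β, at 4.48 on each array were below it. The 3.38 of Itgb6 was shared by 289 probe sets on replicate 1, and the 4.48 of Itgb8 by 228, Itgax among them. The 5.33 of Itgb3 was likewise shared by 87.

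Of the laminin-binding alpha subunits, 2 of 3 were above 100. Itga6 was at 8.61, 8.13 and 9.06 (8.60 ± 0.46, adjusted p = 0.00129), with replicate 3 lowest. Itga3 was at 7.33, 7.11 and 7.36 (7.27 ± 0.14, adjusted p = 0.0106). All 3 arrays were above the level for both genes. Itga3 is also an integrin of podocytes, and the 7 podocyte markers had a mean level of 5.32, 5.20 and 5.19 by array. Of the 7, 0 were above 100 and 4 above the olfactory receptor level, with Nphs1 at 5.47 and Foxc2, called neither at 100, at 6.51. Itga7, mainly of muscle, was at 4.51 on each array, below 100.

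The collagen-binding subunits held no gene above 100. Itga1 was called neither, at 6.002, 6.77 and 5.72 (6.16 ± 0.54, adjusted p = 0.137), with replicate 3 alone above the level. Without replicate 3 it was called below (adjusted p = 0.00703). Itga2, its neighbour on chromosome 13 with no coding gene between them in RefSeq, was at 4.90 on each array and Itga10 at 5.19, 5.19 and 5.14, and Itga11 had a mean of 3.95. These 3 were below 100, and Itga11 was also below the olfactory receptor level.

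The subunits that bind the RGD sequence of fibronectin and vitronectin likewise held none above 100. Itga5, the fibronectin receptor subunit, was at 6.39 on each array and was called neither (adjusted p = 0.103). That call depended on the fit, as it was called below with the usual variance prior (adjusted p = 7.48e-06). Itgav, the shared subunit of vitronectin receptors, was at 6.07, 5.92 and 5.92 (5.97 ± 0.09, adjusted p = 0.00651), below 100 and above the olfactory receptor level. Itga2b, the platelet subunit, was at 5.01 on each array, below 100. Of 5 platelet markers, 0 were above 100, 3 were above the olfactory receptor level (Ppbp at 5.88, Treml1 at 5.53 and Gp9 at 5.45) and 1, Pf4 at 3.38, was below it.

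Itga8, which in the glomerulus is known from mesangial cells, had the widest spread of all members. It was at 6.08, 4.94 and 4.75 (5.26 ± 0.72, adjusted p = 0.014), below 100, and was high on replicate 1. Mesangial and smooth muscle markers had mean levels of 4.67, 4.61 and 4.63 on the same arrays, with 0 of 11 above 100. Of the 11, 7 were identical on all 3 arrays, among them Meis1 at 5.28, the only 1 above the olfactory receptor level. Pdgfrb was at 4.51, 4.13 and 4.03, and Pdgfra at 4.55, 4.62 and 4.55. Their part in the spread of Itga8 was not tested. Without replicate 5 the call was lost (adjusted p = 0.051).

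Itga9 was the only one of the 7 other alpha subunits above 100. Itga9, a partner of beta 1 that binds tenascin and VCAM-1 and is needed for lymphatic valves, was at 8.13 on each array (adjusted p = 0.00038). Its 95% interval was 7.81 to 8.46. The spread behind this interval combines the prior with the SD of 0 of Itga9, which makes the interval narrower. The interval is thus no measure of replicate error. Itga4, the VCAM-1 receptor subunit of leukocytes, was at 4.61, 4.14 and 3.94 (4.23 ± 0.35), below the olfactory receptor level. The leukocyte subunits Itgae, Itgal, Itgam and Itgax were below it too, at 3.77, 4.27, 3.60 and 4.48 on each array, and Itgad was at 5.01. Itgam, Itgax and Itgad lie side by side on chromosome 7, and all 3 were below 100. Leukocyte markers were above 100 for 0 of 11 genes, with mean levels of 4.73, 4.72 and 4.59 by array. Against the olfactory receptor level 4 were above (Cd68 at 5.29, C1qa at 5.33, Coro1a at 5.31 and Lcp1 at 5.37), 3 neither and 4 below. Ptprc, the pan-leukocyte CD45 gene, was neither, at 4.94, 4.80 and 4.58.

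Pairing the subunits into the known heterodimers gave a short list. Of 24 heterodimers, 3 had both partners above 100, namely α3β1, α6β1 and α9β1. Another 2 of the 12 that hold beta 1, α1β1 and α5β1, had an alpha subunit called neither. At the olfactory receptor level, 9 had both partners above: the 5 named, and αvβ1, αvβ3, αvβ5 and α6β4. The transcript of a partner does not show that the pair was formed.

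**Figure D2:**
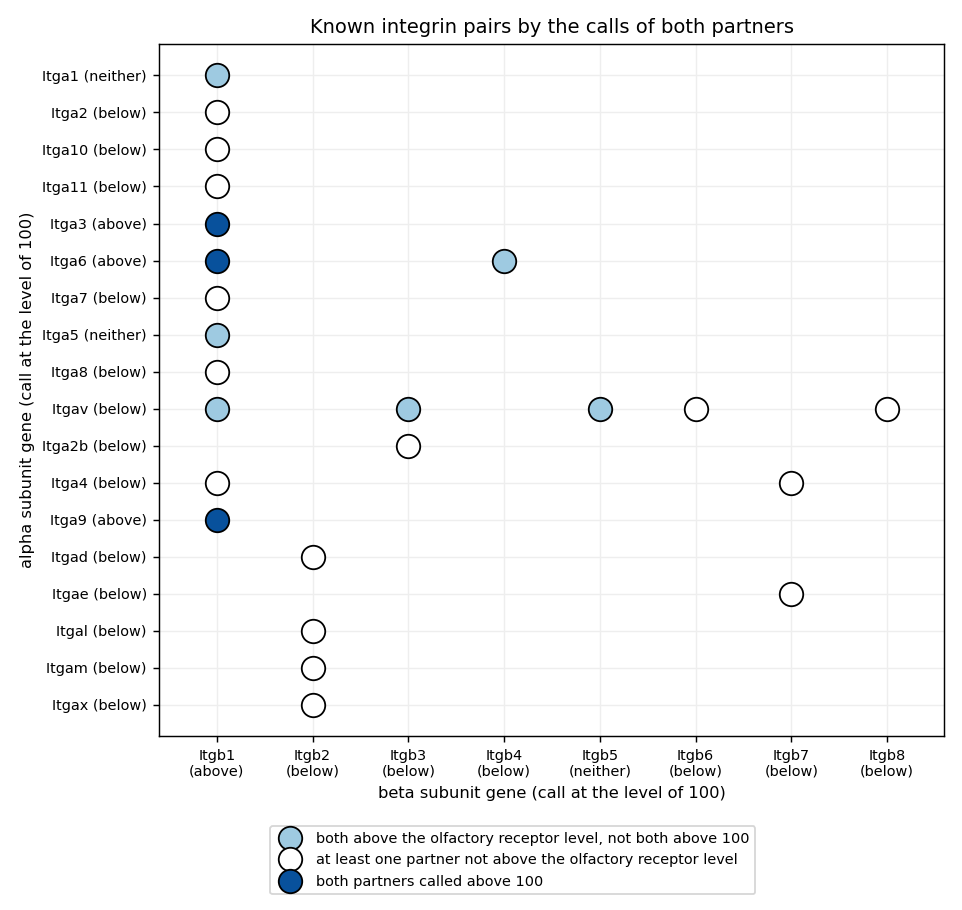
Grid of the 24 known integrin heterodimers, with the beta subunit gene on the x axis and the alpha subunit gene on the y axis, each with its call at the level of 100, and 1 circle a pair. Dark circles mark the 3 pairs with both partners called above 100 (Itga3, Itga6 and Itga9, each with Itgb1), light blue the other pairs with both above the olfactory receptor level, and open circles the rest.

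Each family of activators held 1 member above 100. Tln1, the broadly expressed talin, was at 7.12 on each array (adjusted p = 0.0181), and Tln2, the talin of muscle and brain, at 4.23, 4.55 and 4.36, below the olfactory receptor level. Fermt2 (kindlin-2) was at 8.97, 8.97 and 8.91 (8.95 ± 0.04, adjusted p = 0.000111). Fermt1, the epithelial kindlin, was at 3.62 on each array. Fermt3, the kindlin of blood cells and also known from endothelium, was at 4.93 on each array. Both lay below 100, and only Fermt1 was below the olfactory receptor level.

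The ILK, PINCH and parvin complex had 3 of 6 genes above 100. Ilk, the pseudokinase at its centre, was at 7.42, 7.42 and 7.53 (7.46 ± 0.06, adjusted p = 0.00328). Lims1 (PINCH1) was at 7.34, 7.34 and 7.48 (7.39 ± 0.08, adjusted p = 0.00459). Parvb was at 7.76 on each array (adjusted p = 0.00101). All 3 types of subunit of the complex thus had a gene above 100. Lims2 (PINCH2) was at 6.80 on each array and called neither (adjusted p = 0.279), though above with the usual variance prior (2.61e-05). Parva was at 6.46, 7.09 and 6.02 (6.52 ± 0.54, adjusted p = 0.667), with replicate 3 above the level and the others under it. Parvg, the parvin of blood cells, was at 5.01 on each array, below 100. It is the neighbour of Parvb on chromosome 15, with no coding gene between them.

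The tensins link integrin tails to actin, and 2 of 4 were above 100. Tns1 was at 9.44 on each array (adjusted p = 7.65e-05) and Tns2, which is known from podocytes as well, at 7.50 on each array (adjusted p = 0.00253). Tns3 was at 7.16, 6.74 and 7.16 (7.02 ± 0.24, adjusted p = 0.0803), all 3 arrays being above the level without the call being made. Without replicate 3 it was called above (0.0145). Tns4, a short tensin without the actin-binding region, was at 4.12 on each array, below the olfactory receptor level.

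Tns1 was measured by 6 probe sets, and they did not give 1 answer. Besides the one at 9.44, those at 8.34 and 7.20 on each array and the one at 7.20, 7.39 and 7.39 were above 100. The probe set at 6.57, 6.22 and 6.57 was called neither, and the one at 4.55 on each array was below. The mean of all 6 was also called above. Which exons each covers was not analysed here. The other member with several probe sets, Itgad, had both below 100.

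**Figure D3:**
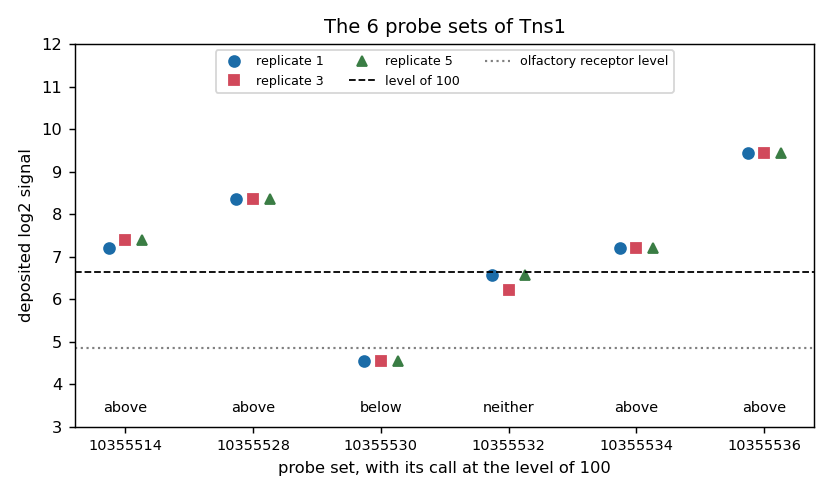
Deposited log2 signal of the 6 Tns1 probe sets on the 3 arrays, with the level of 100 (dashed) and the olfactory receptor level (dotted). The means run from 4.55 to 9.44, with 4 probe sets called above 100, 1 neither and 1 below.

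All 5 adaptors and kinases of focal adhesions were above the olfactory receptor level, beside 43.9% of all genes. Of the 5, 0 were above 100, beside 14.9% of all genes, with 3 called neither and 2 below. Tgfb1i1 (Hic-5), a relative of paxillin, was at 7.18, 6.93 and 6.93 (7.01 ± 0.14, adjusted p = 0.0561), and it was called above with the usual variance prior (0.0264) and without replicate 3 (0.0434). Zyx, a LIM protein of stress fibres, was at 6.50, 6.85 and 6.78 (6.71 ± 0.18, adjusted p = 0.683). Pxn, the scaffold paxillin, was at 6.60 on each array (adjusted p = 0.744), and was called below with the usual prior (0.000541). The 95% intervals of Pxn and Zyx held the level of 100, while that of Tgfb1i1 (6.64 to 7.37) ended at it. Bcar1 (p130Cas), a Src substrate, was at 6.27 on each array (adjusted p = 0.0397), below 100, and the call was lost without replicate 1 (0.0651) or replicate 5 (0.0614). Src was at 5.63 on each array (adjusted p = 0.00138).

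Of the remaining members, Itgb1bp1 (ICAP-1), which binds the tail of beta 1 and holds it inactive, was at 8.01, 8.01 and 7.72 (7.91 ± 0.16, adjusted p = 0.00104). It was above 100. Itgbl1, a secreted protein with integrin-like repeats, was at 3.51 on each array and below the olfactory receptor level.

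The arrays differed in 24 of the 54 member probe sets. A range over 1 log2 was found in 4 of 54 member probe sets (7.41%), beside 5.73% of all probe sets that name 1 gene. These were Itga8 with a range of 1.33, Itgb5 with 1.11, Parva with 1.07 and Itga1 with 1.05. Itga8 was high on replicate 1, Parva and Itga1 were high and Itgb5 low on replicate 3. Of the 24 member probe sets with any difference, replicate 3 was the array farthest from the mean in 10, replicate 5 in 8 and replicate 1 in 6. Over all probe sets with a difference, replicate 3 was farthest in 44.2%. Replicate 3 also had the lowest mean of the endothelial markers (9.62), and the means of the podocyte (5.20) and mesangial (4.61) markers on it differed little from those on the other arrays. Their part in the spread of the members was not tested.

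**Figure D4:**
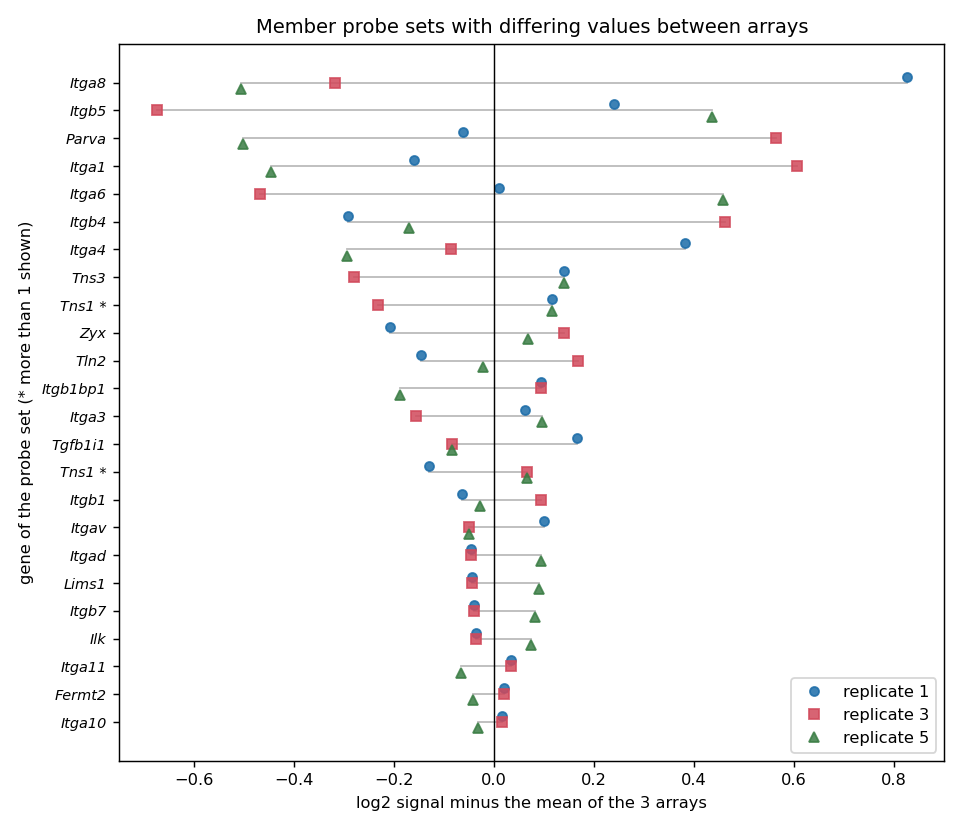
Deviation of each array from the mean of the 3 arrays (x axis, log2) for the member probe sets whose values differ, 1 row a probe set and 1 symbol per array, with a line over the range. Itga8 deviates most, upward on replicate 1, and Itga1, Parva and Itgb5 deviate most on replicate 3.

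The members were set beside 138 other genes of the pathway in 9 lists, of which 47 (34.1%) were above 100, 27 neither and 64 below. Among all genes, 14.9% were above 100 and 73.8% below. The upstream switch of talin, the Rap1 branch, had 6 of 14 (42.9%) above, 2 neither and 6 below. Its GTPases Rap1a and Rap1b were at 10.43 and 11.65, the exchange factor Rapgef2 at 7.26, all above, and Rapgef1 at 5.73 below. Of 8 proteins that keep integrins inactive, 4 (50%) were above and 3 below. Krit1, which binds Itgb1bp1, was above at 7.32, and Ccm2, the partner of Krit1, below at 5.51. Sharpin was above at 7.58, and Flna, which competes with talin, at 6.67 was neither.

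Actin linkers had 6 of 20 (30%) above, beside 14.9% of all genes, with 8 neither and 6 below. Vcl (vinculin), which binds talin, was at 7.75 and Actn4 at 8.66, both above, while Actn1 at 5.28 was below and Vasp at 6.35 neither. Rsu1, a partner of PINCH1, was above at 9.29, 10.42 and 10.71 (10.14 ± 0.75, adjusted p = 0.000658). The LIM protein genes Pdlim1 (6.26, 7.97 and 6.26), Pdlim7 (6.42, 7.43 and 6.67) and Lpp (7.44, 5.70 and 8.31) also ranged over more than 1 log2. In these 3 genes replicate 3 stood apart, high in Pdlim1 and Pdlim7 and low in Lpp. Adaptors and kinases of adhesion signalling had 11 of 29 (37.9%) above, 6 neither and 12 below. The Src family kinases Fyn and Yes1 were above at 8.61 and 7.76. Ptk2b, the relative of focal adhesion kinase, was below at 4.52, and Abl1 below at 5.75. The adaptor Nck1 was above at 9.19, 8.07 and 9.10, and Elmo1, of Rac activation, below at 3.79, 5.48 and 3.86. Both differed on replicate 3, in opposite directions. Of 10 genes of integrin traffic, 5 (50%) were above and 5 below. Rab21 at 9.55 and Rab11a at 10.21, which carry integrins through endosomes, were above, and Rab4a at 5.51 and Rab25 at 4.85 below. The values of Rabgap1 were 8.39, 8.52 and 7.19, and those of Numb, an endocytic adaptor, 10.17, 9.26 and 10.36.

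The ligands had shares above 100 near that of all genes (14.9%). Of 19 basement membrane genes, 2 (10.5%) were above, the laminin chains Lamb2 at 7.26 and Lamc1 at 7.92, with 6 neither and 11 below. Against the olfactory receptor level 14 of the 19 (73.7%) were above, beside 43.9% of all genes. Lama1 at 4.42, Lama2 at 4.02 and Lama4 at 5.78 were below and Lama3 at 6.85 neither. Nid1, which joins laminin to collagen, was neither at 6.67, 5.84 and 6.97. Of 17 RGD and matricellular ligands, 2 (11.8%) were above 100, Ltbp1 at 7.53 and Adam15 at 7.35, with 2 neither and 13 below. Fn1 (fibronectin) at 4.68, Vtn at 4.55 and Tnc at 4.23 were among those below. Npnt (nephronectin), the ligand of α8β1, was at 6.13, 9.10 and 6.21 (7.15 ± 1.69, adjusted p = 0.526), so that replicate 3 alone was above the level. Podocyte markers had a mean of 5.20 on that array, beside 5.32 and 5.19 on the others, and their part in the value of Npnt was not tested.

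Counter-receptors on the cell surface had 3 of 8 (37.5%) above, beside 14.9% of all genes, with 1 neither and 4 below. Icam2 was above at 9.31, Icam1 below at 5.73 and Madcam1 below at 4.02. Vcam1, bound by α4β1 and α9β1, was neither at 5.04, 6.75 and 5.03, again with replicate 3 high. Among 13 membrane proteins that accompany integrins, 8 (61.5%) were above, 1 neither and 4 below. The tetraspanins Cd9 at 8.31, Cd81 at 11.58 and Cd151, the partner of α3β1 and α6β1, at 7.27, 7.55 and 8.37 were above, and Cd82 at 5.55 below. Plaur, the urokinase receptor, was neither at 7.23, 5.98 and 7.74, with replicate 3 below the level.

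**Figure D5:**
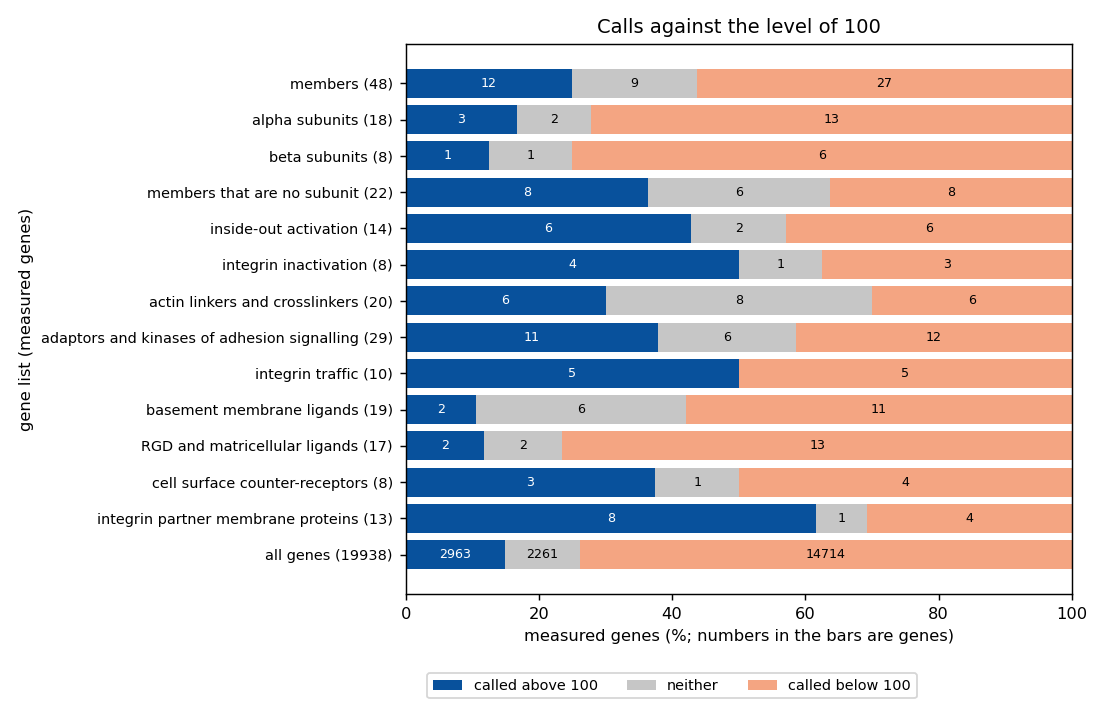
Share of measured genes in percent (x axis) called above (blue), neither (grey) or below (orange) the level of 100, for the members, their subunits and other proteins, the 9 lists of other adhesion genes and all genes, 1 bar a list with the number of genes written in it. Of the 22 members that are no subunit 8 were above, of the partner membrane proteins 8 of 13, and of the RGD and matricellular ligands 2 of 17.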

How the data were processed

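Amplified RNA from GFP-positive cells of the glomerulus was hybridised to Affymetrix mouse gene arrays, 1 array per kidney. The authors deposited log2 signals, 1 value per probe set and array. Affymetrix Expression Console is named in the submitters' processing notes, and RMA in the study's methods. The sources used here do not say which arrays were normalized with each other, so a deposited level of 100 need not be 100 on the raw scale of the study's filter. The number of arrays limits the precision. Of 35557 probe sets, 21789 name 1 gene, 1621 several and 12147 none, in the platform annotation, and only the first were tested. Symbols of all 48 members matched RefSeq (GRCm38.p6).

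An intercept was fitted in limma 3.58.1 (R 4.3.3) to all probe sets that name 1 gene, and the mean was tested against each level, with Benjamini-Hochberg adjustment over all of them. To set the variance prior, 4406 probe sets whose 3 values all differ were used (SD 0.288 and 2.03 degrees of freedom). The usual prior, from all probe sets, rests on many variances of 0 and was an alternative. The others were median centring, quantile normalization, a filter on dim probe sets, each array left out, the mean of a gene's probe sets and other levels. The fit was tested on simulated data with the same share of ties, where probe sets placed at the level itself were called more often than the threshold allows. The tied ones among them repeated 1 drawn value on all arrays and so lay off the level, which can add to these calls. The simulation thus cannot say how often the fit itself errs at the level. Calls close to 100 remain the least certain. All members are named, and of each list the first 4 measured genes and those ranging over more than 1 log2, with the ligands above 100, chosen after their values were seen. The members and lists were chosen with earlier results of these data known.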

Additional observations from a re-analysis of the deposited data

Results flagged for a closer look

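Besides the probe set that names Itgam alone, 3 probe sets name both Itgam and Rpl35, a ribosomal protein gene, and were left out of every count because they name 2 genes. Their mean levels were 11.3 (11.10, 11.48 and 11.42 on replicates 1, 3 and 5), 10.9 (10.63, 11.09 and 10.90) and 11.3 (11.06, 11.42 and 11.35). They are given here because they carry a signal above the olfactory receptor level of 4.85 in data that no count used. How much of it belongs to either gene was not tested. Rpl35 and Itgam cannot be told apart on these probe sets. The probe set of Itgam alone was at 3.60 on each array.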

How the results depend on the processing

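No paired analysis was possible because all arrays form 1 group. All 12 members above 100 stayed above under every alternative that kept that level. A level of 50 gave 20 members and 6238 probe sets above, and a level of 200 gave 5 and 1819, beside 12 and 3451. Testing only the brighter probe sets, with a mean at or above the median of 5.04, leaves fewer to test and itself removes genes below 100. It gave 7 members, 31 pathway genes and 4741 probe sets below 100, beside 27, 64 and 15803. No probe set kept can have a mean below the olfactory receptor level of 4.85. The 0 members below that level were thus fixed by the filter. Setting that level at the 90th or the 99th percentile put 7 or 20 members below it, beside 12. Member probe sets with a range over 1 log2 numbered 1 to 3 with an array left out, beside 4. With an array left out, the level minus that of 100 changed sign in 9 genes called neither. It ran from -0.47 to 0.0814 in Itgb5, -0.40 to 0.13 in Parva, -0.00587 to 0.17 in Zyx, -0.0705 to 1.23 in Lpp, -0.39 to 0.17 in Nid1, -0.47 to 1.02 in Npnt, -0.38 to 0.47 in Pdlim1, -0.10 to 0.40 in Pdlim7 and -0.0346 to 0.84 in Plaur. With the mean of a gene's probe sets it was -0.44 in Lpp and -0.38 in Pdlim1, in place of 0.51 and 0.19. The level of the other members kept its sign under all alternatives, and of the members' values under the alternatives 343 kept sign and call, 15 gained a call, 4 lost one and 3 changed sign. The call of Bcar1 was also lost among brighter probe sets alone (adjusted p = 0.0608), and Tns3 was also called above after quantile normalization (0.0493). With median centring or quantile normalization Itga5 was called below (0.0076 and 0.00163), Lims2 above (0.0311 and 0.0104) and Tgfb1i1 above (0.0187 and 0.0203). After centring Itga5 lay -0.258 and Lims2 0.153 from the level of 100, the same as before. Shifting the arrays by slightly different amounts changes which probe sets hold 3 differing values, and those set the variance prior. These calls and that of Tns3 were thus no test of scaling alone.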
